A study of Mus musculus with 24 samples.

Results

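The myogenic regulatory factors Myod1, Myf5, Myog and Myf6, the Mef2 factors Mef2a, Mef2c and Mef2d, and the paired box factors Pax3 and Pax7 were followed through cultured mouse muscle cells. They are 9 of the 19938 genes measured on 24 Affymetrix whole-transcript arrays. Each was read from the probe set that the platform annotation assigns to that symbol alone. Mef2d has 2 such probe sets and is given by the one with the higher mean over the 24 arrays, the other factors have 1.

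The series asked whether MuSK, a synaptic receptor kinase of muscle, shapes what BMP4 does to muscle cells before and after differentiation. The 8 groups, with 3 arrays each, were MuSK-/- and wild-type myotubes treated with BMP4, MuSK-/- and wild-type myotubes left untreated, and the same 4 combinations of genotype and treatment in myoblasts. Treated cells received 25 ng/ml BMP4 for 8 h. Both lines are described as immortalised and were grown as myoblasts at 33 °C with interferon-γ, and H-2Kb-tsA58, the name given with the wild-type line, is a transgene in which an interferon-inducible promoter drives a temperature-sensitive large T antigen. Myotubes had been kept for 3 days in horse serum at 37 °C, so stage moves with medium, serum and temperature. Treated myoblasts had been deprived of serum for 4 h and treated myotubes had not, and for untreated myoblasts no label speaks of deprivation. Each genotype is 1 cell line, so genotype and line cannot be told apart. The arrays of a group are called biological replicates, without saying whether they came from separate cultures, so the p-values reflect array-to-array spread that may be technical.

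As background, Pax3 and Pax7 mark muscle progenitors and act upstream of Myf5 and Myod1, the basic helix-loop-helix factors that commit cells to the muscle lineage. Myogenin (Myog) carries committed myoblasts into differentiation, and Myf6, also called Mrf4, acts late in the programme and in muscle fibres. These factors pair with E proteins and bind the E-box CANNTG, Mef2 factors cooperate with them on muscle genes, and Id proteins, which BMP signalling induces, take the E proteins away from them.

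Signals are the deposited values on a log2 scale, on which a difference of 1 is a doubling of intensity. The number of arrays limits their precision, and the signals of different probe sets are not comparable with each other. Differences were tested with limma across all 19938 genes, each is given with its standard error (SE), and a gene was called where its Benjamini-Hochberg adjusted p from limma over all genes was under 0.05. Musk itself, on 1 probe set, had a signal of 11.22 ± 0.04 in untreated MuSK-null myotubes and 12.72 ± 0.04 in untreated wild-type myotubes (SD, n = 3 each), and 10.85 ± 0.14 in untreated MuSK-null myoblasts against 11.57 ± 0.07 in untreated wild-type myoblasts (SD, n = 3 each). It was called lower in the MuSK-null line at both stages, and the deleted exons are unknown here, so this signal is a partial check of the labels. With differentiation all 6 myotube markers were called higher in both lines, where 41.6% of all genes were called in MuSK-null and 45.0% in wild-type cells. The 4 myoblast markers did not fall as a list, with 4 higher and 0 lower in MuSK-null cells (median 1.20) and 3 higher and 1 lower in wild-type cells (median 0.93). In 4 myoblast arrays, 1 in each myoblast group, deviations from the group mean over all genes went together, with correlations of 0.42 to 0.54. They were picked, of 81 ways to take 1 array per myoblast group, as the way whose lowest correlation was highest. The second best way had a lowest correlation of 0.21. The 4 arrays are replicate 2 of the treated and the untreated MuSK-null myoblasts, replicate 3 of the treated wild-type myoblasts and replicate 2 of the untreated wild-type myoblasts, called the array set here. Results that rest on them are given with and without them where a call differs.

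**Figure D1:**
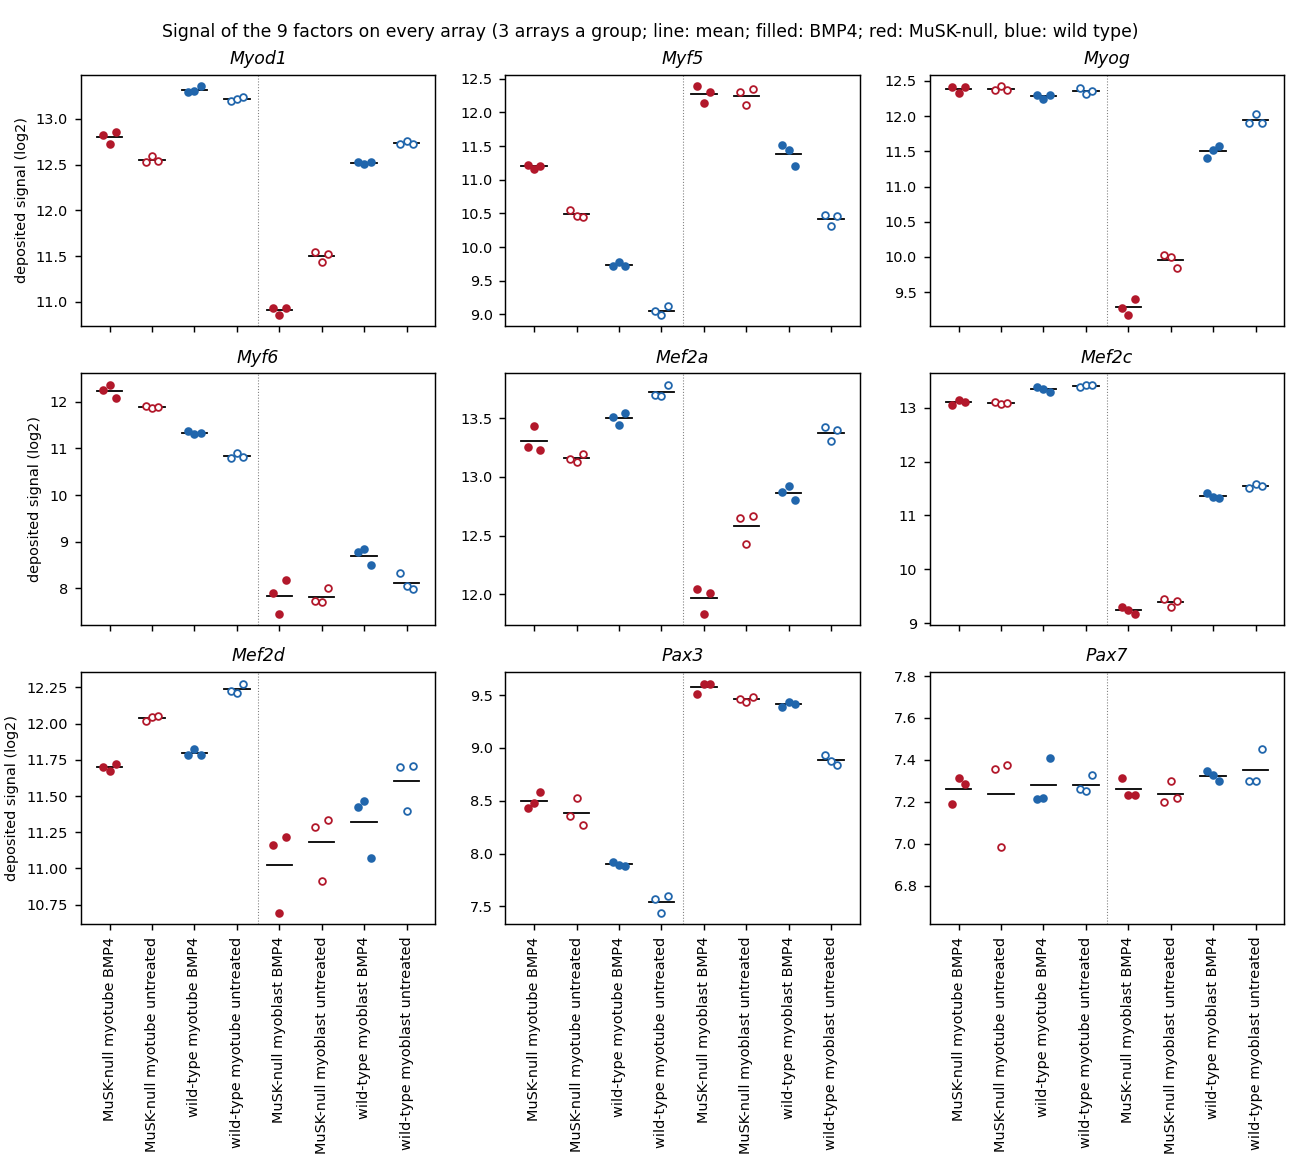
Deposited log2 signal of the 9 factors on each of the 24 arrays, with myotube groups left of the dotted line and myoblast groups right of it. Points are arrays, horizontal lines are means of 3, filled points are BMP4-treated, red is MuSK-null and blue is wild type, and each panel has its own vertical scale. Myf6 and Mef2c have the widest spans of group means (4.41 and 4.17), and Pax7 stays between 6.98 and 7.45.

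Pax3, a factor of embryonic muscle progenitors, was higher in myoblasts than in myotubes of both lines, higher in the MuSK-null line in 3 of 4 settings, and rose with BMP4 in the wild-type line. Its signal in the treated MuSK-null myoblasts was 9.51, 9.60 and 9.61, against 9.46, 9.44 and 9.48 in the untreated ones. In wild-type myoblasts it was 9.39, 9.43 and 9.42 with BMP4 and 8.93, 8.88 and 8.84 without. These 4 groups did not overlap, and treated wild-type myoblasts came close to the MuSK-null level. In myotubes Pax3 was 8.43, 8.48 and 8.58 in treated and 8.36, 8.53 and 8.27 in untreated MuSK-null cells, which overlapped. Wild-type myotubes had 7.92, 7.89 and 7.88 with BMP4 and 7.57, 7.44 and 7.60 without. The wild-type groups were therefore apart from each other and below both MuSK-null groups. With BMP4 Pax3 changed by 0.11 in MuSK-null myoblasts (adjusted p = 0.42, 95% interval -0.02 to 0.25), against a rise of 0.53 in wild-type myoblasts (SE 0.06, adjusted p = 2.2e-06). In myotubes the change was 0.11 in MuSK-null cells (adjusted p = 0.355, 95% interval -0.02 to 0.25), against a rise of 0.36 in wild-type cells (SE 0.06, adjusted p = 0.000512). The difference of the 2 myoblast responses, MuSK-null minus wild type, was -0.42 (SE 0.09, adjusted p = 0.0107) and -0.44 without the array set (adjusted p = 0.0684). The same difference in myotubes was -0.25 (SE 0.09, adjusted p = 0.189).

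Pax7, the factor that marks satellite cells of adult muscle, was called in 0 of 15 comparisons. Its group means spanned 0.11 log2 units, about the median within-group SD of all genes (also 0.11), and all 8 groups overlapped their neighbours in the order of levels. No detection p-values were analysed, so whether this signal lies above background was not tested.

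Myf5, an early commitment factor, rose with BMP4 in all groups but the MuSK-null myoblasts. In myoblasts its signal was 12.39, 12.14 and 12.31 in treated MuSK-null cells, against 12.30, 12.11 and 12.35 in untreated ones. Treated wild-type myoblasts had 11.51, 11.44 and 11.21 and untreated ones 10.48, 10.32 and 10.46. The MuSK-null groups overlapped each other and lay above all wild-type myoblast arrays, while the wild-type groups were apart. In myotubes the signal was 11.22, 11.17 and 11.21 with BMP4 and 10.56, 10.46 and 10.44 without in MuSK-null cells. Wild-type myotubes had 9.71, 9.78 and 9.71 with BMP4 and 9.05, 8.99 and 9.12 without. No myotube group overlapped another, and BMP4 arrays were the higher ones in both lines. In MuSK-null myoblasts, which had the highest level of the 4 untreated groups, Myf5 changed by 0.03 with BMP4 (adjusted p = 0.923, 95% interval -0.14 to 0.20). Whether the starting level bears on the response was not tested. In wild-type myoblasts Myf5 rose by 0.97 (SE 0.08, adjusted p = 6.09e-09), a factor of 1.96. It rose by 0.71 (SE 0.08, adjusted p = 8.87e-07) in MuSK-null myotubes and by 0.68 (SE 0.08, adjusted p = 2.63e-06) in wild-type myotubes. The difference of the myoblast responses, MuSK-null minus wild type, was -0.94 (SE 0.11, adjusted p = 1.91e-05), and -0.98 without the array set (adjusted p = 7.62e-06). The same difference in myotubes was 0.03 (SE 0.11, adjusted p = 0.947, 95% interval -0.21 to 0.27). All 4 arrays of the array set had Myf5 below the other arrays of their group, by 0.15 to 0.27.

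Myod1, the other commitment factor, moved against Myf5 between the lines. It was 10.93, 10.86 and 10.94 in treated and 11.54, 11.43 and 11.53 in untreated MuSK-null myoblasts. Wild-type myoblasts had 12.53, 12.51 and 12.53 with BMP4 and 12.72, 12.76 and 12.73 without. The 4 groups did not overlap, and both treated groups lay below their untreated ones. In myotubes the order with treatment was the other way, with 12.82, 12.72 and 12.86 in treated and 12.53, 12.60 and 12.54 in untreated MuSK-null cells. Wild-type myotubes had 13.29, 13.30 and 13.36 with BMP4 and 13.19, 13.22 and 13.24 without. Myod1 fell by 0.59 (SE 0.05, adjusted p = 2.62e-08) with BMP4 in MuSK-null myoblasts and, in wild-type myoblasts, by 0.21 (SE 0.05, adjusted p = 0.00755). It rose by 0.25 (SE 0.05, adjusted p = 0.00199) in MuSK-null myotubes, and the change in wild-type myotubes was 0.10 (adjusted p = 0.324, 95% interval -0.01 to 0.21). The myoblast response differed between lines by -0.38 (SE 0.07, adjusted p = 0.00476). The difference of the myotube responses was 0.15 (SE 0.07, adjusted p = 0.39). With only the compared groups in the fit, the response had adjusted p = 0.0526 in MuSK-null myotubes and 0.0756 in wild-type myoblasts.

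Myog, the differentiation factor, was nearly level in myotubes and differed by line in myoblasts. Its signal was 9.27, 9.18 and 9.40 in treated and 10.03, 10.00 and 9.84 in untreated MuSK-null myoblasts. Wild-type myoblasts had 11.41, 11.52 and 11.58 with BMP4 and 11.91, 12.03 and 11.91 without. All 4 myoblast groups were apart, in the order untreated wild type, treated wild type, untreated MuSK-null, treated MuSK-null. In myotubes all 12 arrays lay between 12.25 and 12.43. Myog fell by 0.67 (SE 0.07, adjusted p = 1.11e-07) with BMP4 in MuSK-null myoblasts and, in wild-type myoblasts, by 0.44 (SE 0.07, adjusted p = 3.39e-05). The myotube responses were -0.00 (adjusted p = 0.994) in the MuSK-null line and -0.07 (adjusted p = 0.64) in wild type, with 95% intervals of -0.14 to 0.14 and -0.21 to 0.07.

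The region upstream of Myog is shown because its E-boxes and Mef2 site, known from work on the mouse gene, tie it to the other factors measured here, and that of Myf5 because it moved the other way. Windows of 300 bases, 250 before and 50 after the annotated start, were taken from RefSeq on GRCm38.p6 and held an entry for 6 of the 9 factors, with 8 windows in all. The Myog window is chr1:134289754-134290053 on the + strand and the Myf5 window is chr10:107486085-107486384 on the - strand. The Mef2a window, chr7:67372809-67373108 on the - strand, is shown because it alone among the 8 holds a match to the MEF2 consensus. Capitals mark matches, on either strand, to the E-box CANNTG, the loose Mef2 pattern CTANNNNTA, the MEF2 consensus or the MEF3 motif TCAGGTTTC, and the loose pattern was chosen so that the known Myog site matches.
Myog: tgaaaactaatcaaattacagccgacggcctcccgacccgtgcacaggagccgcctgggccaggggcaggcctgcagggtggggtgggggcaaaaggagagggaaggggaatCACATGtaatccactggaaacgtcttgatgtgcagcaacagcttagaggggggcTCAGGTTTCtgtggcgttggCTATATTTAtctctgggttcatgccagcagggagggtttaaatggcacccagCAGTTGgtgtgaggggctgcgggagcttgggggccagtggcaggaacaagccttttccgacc
Myf5: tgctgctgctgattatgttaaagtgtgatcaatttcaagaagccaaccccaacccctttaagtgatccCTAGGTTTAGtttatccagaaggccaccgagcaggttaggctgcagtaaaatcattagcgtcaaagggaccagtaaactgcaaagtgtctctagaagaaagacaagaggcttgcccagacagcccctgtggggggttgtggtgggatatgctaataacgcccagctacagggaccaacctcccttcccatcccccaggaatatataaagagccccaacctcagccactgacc
Mef2a: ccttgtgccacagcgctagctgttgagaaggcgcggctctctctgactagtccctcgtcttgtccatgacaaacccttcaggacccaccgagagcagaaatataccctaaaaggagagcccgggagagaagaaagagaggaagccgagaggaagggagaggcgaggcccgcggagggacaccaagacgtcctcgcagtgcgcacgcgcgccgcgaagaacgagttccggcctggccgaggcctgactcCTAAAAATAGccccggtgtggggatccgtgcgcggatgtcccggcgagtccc
In the Myog window E-boxes CACATG and CAGTTG begin 138 and 12 bases upstream of the start, CTATATTTA begins 64 bases upstream and TCAGGTTTC 84 bases upstream. The Myf5 window holds no E-box in these letters, and its only match is a stretch that reads as CTANNNNTA on both strands in overlap, 182 bases upstream. In Mef2a the MEF2 consensus begins 2 bases upstream of the start and contains its loose matches. Of 32851 RefSeq windows of this length, 72.3% hold CANNTG, 21.0% hold CTANNNNTA, 3.19% hold the MEF2 consensus and 0.429% hold TCAGGTTTC. These matches are descriptions of the letters and were tested for no function.

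Myf6, the late factor, was higher in myotubes than in myoblasts of both lines, and its myotube level was higher in the MuSK-null line. It had 12.24, 12.36 and 12.08 in treated and 11.91, 11.86 and 11.88 in untreated MuSK-null myotubes. Wild-type myotubes had 11.37, 11.31 and 11.33 with BMP4 and 10.80, 10.91 and 10.82 without. No 2 myotube groups overlapped, and treated arrays were higher in both lines. In myoblasts it was 7.89, 7.46 and 8.19 in treated and 7.73, 7.71 and 8.01 in untreated MuSK-null cells. Wild-type myoblasts had 8.78, 8.84 and 8.49 with BMP4 and 8.34, 8.06 and 7.98 without. The MuSK-null and the untreated wild-type myoblasts overlapped, and treated wild-type myoblasts lay above them. With BMP4 Myf6 changed by 0.03 (adjusted p = 0.954) in MuSK-null myoblasts and rose by 0.58 in wild-type myoblasts (SE 0.13, adjusted p = 0.00398). The difference of these responses, MuSK-null minus wild type, was -0.55 (SE 0.19, adjusted p = 0.184). It was called in 1 of 9 alternatives that kept every compared array or left out the array set, namely with the set blocked (adjusted p = 0.0451). Leaving out 1 array gave a call in 1 of 12 cases, without replicate 3 of the treated MuSK-null arrays. The adjusted p-values of the 12 lay between 0.0246 and 0.394. In MuSK-null myotubes the change was 0.35 (SE 0.13, adjusted p = 0.112). It was called without the array set (adjusted p = 0.0242) and with only the compared groups in the fit (adjusted p = 0.0290). In wild-type myotubes it rose by 0.49 (SE 0.13, adjusted p = 0.0191), but this call failed without replicate 1 or 3 of the treated or of the untreated arrays, 4 of the 6, with adjusted p between 0.0377 and 0.0718 over the 6. The myotube responses differed by -0.15 (SE 0.19, adjusted p = 0.804), MuSK-null minus wild type. Myf6 is the neighbour of Myf5 in the RefSeq annotation. Over the 24 arrays their signals had a correlation of -0.58, while both were higher in treated than in untreated wild-type cells.

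Mef2c, the Mef2 gene of differentiating muscle, followed stage and line and hardly followed BMP4. It had 9.30, 9.25 and 9.17 in treated and 9.45, 9.31 and 9.42 in untreated MuSK-null myoblasts. Wild-type myoblasts had 11.42, 11.35 and 11.33 with BMP4 and 11.51, 11.59 and 11.55 without. The lines were far apart, and within each line the treated arrays lay just below the untreated ones. In myotubes the signal ran from 13.06 to 13.14 in treated and from 13.08 to 13.11 in untreated MuSK-null cells, and from 13.30 to 13.38 in treated and 13.39 to 13.43 in untreated wild-type cells. With BMP4 Mef2c changed by -0.15 in MuSK-null myoblasts (SE 0.05, adjusted p = 0.115) and by -0.18 in wild-type myoblasts (SE 0.05, adjusted p = 0.0288). The MuSK-null change was called without dim genes (adjusted p = 0.0443) and with trend and robust moderation (adjusted p = 0.0496). The wild-type change was not called with only the compared groups in the fit (adjusted p = 0.161). The myoblast responses of the 2 lines differed by 0.04 (SE 0.08, adjusted p = 0.968), MuSK-null minus wild type. Without the array set the wild-type change was -0.15 (adjusted p = 0.171), and its call was also lost on leaving out replicate 2 or 3 of the treated or of the untreated arrays, with adjusted p between 0.0807 and 0.109.

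Mef2a, a more widely expressed Mef2 gene, fell with BMP4 in the myoblasts of both lines. It had 12.05, 11.83 and 12.01 in treated and 12.65, 12.43 and 12.67 in untreated MuSK-null myoblasts. Wild-type myoblasts had 12.87, 12.92 and 12.81 with BMP4 and 13.42, 13.31 and 13.40 without. The 4 groups were apart and in the same order as for Myog. Mef2a fell by 0.62 (SE 0.07, adjusted p = 1.95e-06) in MuSK-null and, in wild-type myoblasts, by 0.51 (SE 0.07, adjusted p = 2.1e-05). In myotubes it had 13.25, 13.44 and 13.23 in treated and 13.16, 13.13 and 13.20 in untreated MuSK-null cells, and 13.51, 13.44 and 13.54 in treated and 13.70, 13.69 and 13.79 in untreated wild-type cells. The treated arrays were the higher ones in the MuSK-null line and the lower ones in wild type, without overlap. The changes were 0.14 (SE 0.07, adjusted p = 0.279) and -0.23 (SE 0.07, adjusted p = 0.0599), and their difference of 0.37 (SE 0.10) had an adjusted p = 0.0534. Without the array set, which holds no myotube array and acts there through the estimated spread, the wild-type change had an adjusted p = 0.0135 and the difference 0.0117.

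Mef2d, a Mef2 gene expressed through the muscle lineage, was higher in myotubes, and was called lower with BMP4 in wild-type myotubes. That call held in the 9 alternatives that kept every compared array, and was lost on leaving out any 1 of these 6 arrays. Mef2d had 11.70, 11.67 and 11.72 in treated and 12.02, 12.05 and 12.05 in untreated MuSK-null myotubes. Wild-type myotubes had 11.79, 11.83 and 11.78 with BMP4 and 12.23, 12.21 and 12.28 without. Treated and untreated myotubes were well apart in both lines. In myoblasts it had 11.16, 10.69 and 11.22 in treated and 11.29, 10.91 and 11.34 in untreated MuSK-null cells. Wild-type myoblasts had 11.43, 11.47 and 11.07 with BMP4 and 11.70, 11.39 and 11.71 without. In each myoblast group the low array is the one of the array set, 0.31 to 0.50 below the mean of the other arrays, and the second Mef2d probe set was lowest on the same arrays. With BMP4 Mef2d changed by -0.34 (SE 0.12, adjusted p = 0.0842) in MuSK-null myotubes, called with only the compared groups in the fit (adjusted p = 0.00707) and without dim genes (adjusted p = 0.0450). In wild-type myotubes it changed by -0.44 (SE 0.12, adjusted p = 0.0259). Without any 1 of the 6 compared arrays the wild-type change was -0.45 to -0.42 and was not called (adjusted p between 0.0576 and 0.0854). The SDs of Mef2d within groups were 0.02 to 0.03 in myotubes and 0.18 to 0.29 in myoblasts, and the fit pools them. MuSK-null myoblasts changed by -0.15 (SE 0.12, adjusted p = 0.615), against -0.28 in wild-type myoblasts (SE 0.12, adjusted p = 0.197). Without the array set it was -0.34 (adjusted p = 1.97e-05) in MuSK-null and -0.44 (adjusted p = 1.86e-06) in wild-type myotubes, and -0.12 (adjusted p = 0.231) in MuSK-null and -0.26 (adjusted p = 0.00308) in wild-type myoblasts. The set was found from the same arrays, so calls gained without it are no separate support. The second Mef2d probe set, tested on its own, changed with BMP4 by -0.45 (SE 0.19, adjusted p = 0.155) in MuSK-null myotubes. Its change was -0.72 (SE 0.19, adjusted p = 0.0150) in wild-type myotubes. For myoblasts it was -0.15 (adjusted p = 0.783) in MuSK-null and -0.41 (adjusted p = 0.218) in wild-type cells. On the first probe set the myotube responses differed between the lines by 0.10 (adjusted p = 0.872).

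**Figure D2:**
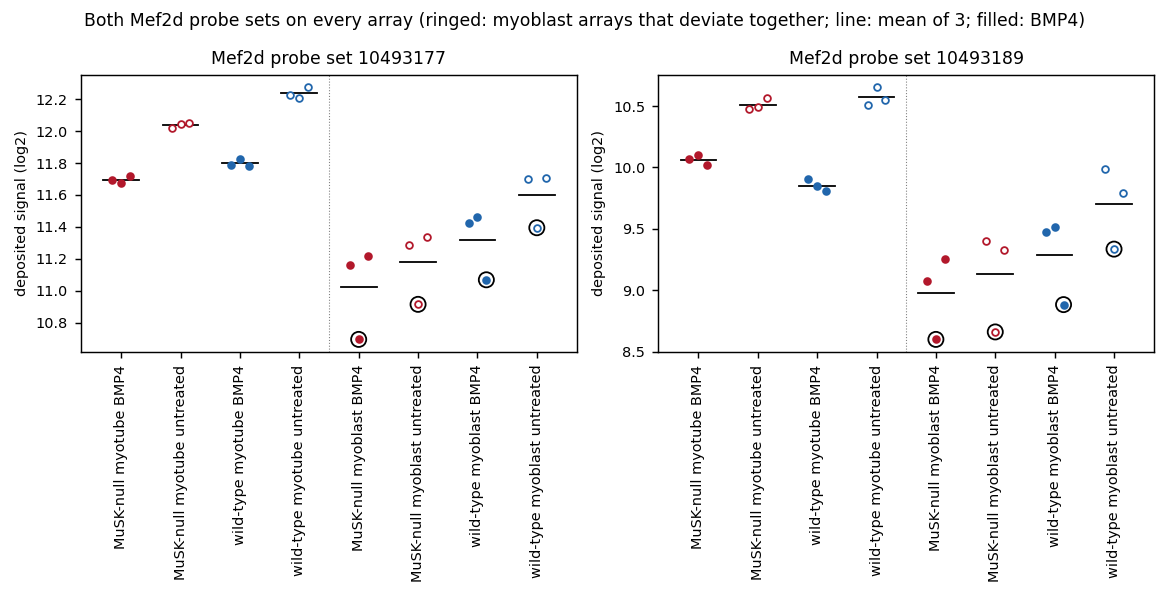
Deposited log2 signal of both Mef2d probe sets on each array, with myotube groups left of the dotted line. Points are arrays, lines are means of 3, filled points are BMP4-treated, red is MuSK-null and blue is wild type. Rings mark the 4 myoblast arrays that deviate together, and each is the lowest array of its group on both probe sets.

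Set side by side, BMP4 was followed in MuSK-null myoblasts by lower Myog, Mef2a and Myod1, so 0 of the 9 factors were called higher and 3 lower, where 8.42% of all 19938 genes were called. In wild-type myoblasts 3 were called higher (Myf5, Myf6 and Pax3) and 4 lower (Mef2a, Myog, Myod1 and Mef2c), against 11.0% of all genes. The Mef2c call was lost in 4 of 6 fits without 1 array. With only the compared groups in the fit Mef2c and Myod1 were not called (adjusted p = 0.161 and 0.0756). In MuSK-null myotubes 2 were called higher (Myf5 and Myod1) and 0 lower, against 11.3%, and 4 factors were called without the array set, Mef2d and Myf6 being the additional ones. With only the compared groups in that fit Mef2d and Myf6 were called as well (adjusted p = 0.00707 and 0.0290) and Myod1 was not (adjusted p = 0.0526). In wild-type myotubes 3 were called higher (Myf5, Myf6 and Pax3) and 1 lower (Mef2d), against 8.77%. In these myotubes the Myf6 call was lost in 4 of 6 fits without 1 array and the Mef2d call in 6 of 6. Without the array set Mef2a was called lower there as well (-0.23, adjusted p = 0.0135), as it was without dim genes, under median centring and with trend and robust moderation (adjusted p = 0.0269, 0.0438 and 0.0160). Myog and Mef2a were called lower in the myoblasts of both lines, and Myf5 was called higher in 3 of the 4 settings. Treated and untreated myoblasts may also differ in serum deprivation, and its part in these changes was not tested.

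**Figure D3:**
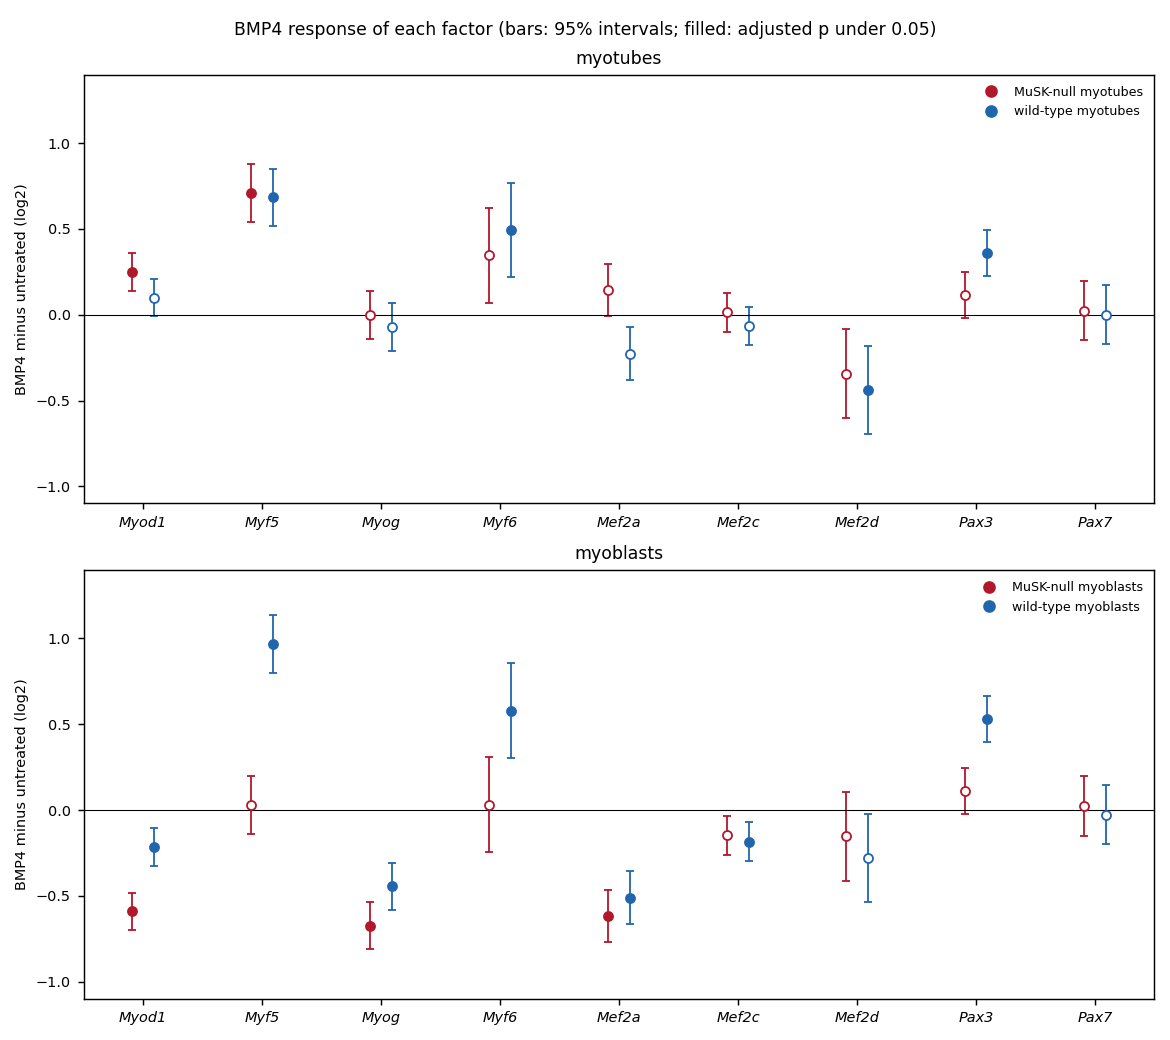
BMP4 response of each factor as treated minus untreated log2 signal, in myotubes (upper panel) and myoblasts (lower panel), for MuSK-null (red) and wild-type cells (blue), 3 arrays a group. Bars are 95% intervals from limma and filled points have an adjusted p under 0.05. The Myf5 responses are 0.71 in MuSK-null and 0.68 in wild-type myotubes, and 0.03 in MuSK-null and 0.97 in wild-type myoblasts.

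Of the interactions, the difference of myoblast responses between the lines called 0 factors higher and 3 lower in the MuSK-null line (Myf5, Pax3 and Myod1), where 2.39% of all genes were called. The difference of myotube responses called 0 of the 9, against 3.21% of all genes. Closest to a call were Mef2a at 0.37 (SE 0.10, adjusted p = 0.0534) and Pax3 at -0.25 (SE 0.09, adjusted p = 0.189). The difference of responses between stages, myotubes minus myoblasts, was called for 4 factors in MuSK-null cells, all higher, against 6.16% of all genes. It was 0.84 for Myod1 (SE 0.07, adjusted p = 7.38e-08), 0.76 for Mef2a (SE 0.10, adjusted p = 2.98e-05), 0.68 for Myf5 (SE 0.11, adjusted p = 0.000353) and 0.67 for Myog (SE 0.09, adjusted p = 3.93e-05). In wild-type cells it was called for Myod1 and Myog (0.31 with SE 0.07 and adjusted p = 0.0161, and 0.37 with SE 0.09 and adjusted p = 0.025), 2 factors against 3.42% of all genes. Leaving out 1 array ended the Myog call in 6 of 12 cases and the Myod1 call in 1 of 12, replicate 1 of the untreated myotubes, and with only the compared groups in the fit neither was called (adjusted p = 0.0523 for Myog and 0.0522 for Myod1). For Myf5 in wild-type cells the stage difference was -0.29 (adjusted p = 0.259), and -0.32 without the array set (adjusted p = 0.0336). Serum deprivation and temperature differ between the stages and cannot be told apart from them.

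Inhibitors of basic helix-loop-helix factors, with the Id genes that BMP signalling is known to induce among them, were measured beside the factors. Of 17 genes that inhibit or antagonise basic helix-loop-helix factors, 9 were called higher and 1 lower in MuSK-null myoblasts, where 8.42% of all genes were called (median change 0.39, against 0.02 over all genes), and 10 and 2 in wild-type myoblasts, against 11.0% (median 0.37, against -0.00). In myotubes 10 were higher and 1 lower in the MuSK-null line, against 11.3% (median 0.36), and 10 and 3 in wild type, against 8.77% (median 0.48). Id1, an inhibitor that binds E proteins, rose by 0.99 (SE 0.07) with BMP4 in MuSK-null myoblasts, to 11.61 against 10.62 untreated, and by 2.44 (SE 0.07) in wild-type myoblasts, to 11.10 against 8.66. Untreated MuSK-null myoblasts thus had Id1 1.96 log2 units above untreated wild-type myoblasts (SE 0.07, adjusted p = 6.9e-16), and Id3 1.66 above (SE 0.09). In myotubes Id3 rose by 2.86 (SE 0.09) in MuSK-null and by 1.88 (SE 0.09) in wild-type cells. The response of Id3 differed between the lines by -1.60 (SE 0.13, adjusted p = 5.08e-08) in myoblasts and by 0.97 (SE 0.13, adjusted p = 4.67e-05) in myotubes, MuSK-null minus wild type. Of the 3 E proteins, Tcf4 fell by 0.39 (SE 0.06) and Tcf12 by 0.34 (SE 0.08) in MuSK-null myoblasts, Tcf4 by 0.28 (SE 0.06) in wild-type myoblasts, and none was called in myotubes, where the 3 changes had medians of -0.05 in MuSK-null and -0.02 in wild-type cells.

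Of 32 genes that MyoD and myogenin are known to switch on, 0 were called higher with BMP4 and 19 lower in MuSK-null myoblasts (median -0.27), where 8.42% of all genes were called, and 0 and 18 in wild-type myoblasts (median -0.28), against 11.0%. In myotubes 9 were lower in the MuSK-null line (median -0.04, against 11.3% of all genes) and 8 in wild type (median -0.08, against 8.77%), with 0 higher in each. The response in myotubes minus that in myoblasts was called higher for 13 and lower for 2 of the 32 in MuSK-null cells, against 6.16% of all genes, and for 9 and 0 in wild-type cells, against 3.42%. In MuSK-null myoblasts Chrnd, a subunit of the acetylcholine receptor, fell by 1.92 (SE 0.05) and Cdh15, M-cadherin, by 1.35 (SE 0.07). In wild-type myoblasts Cdkn1c, a cell cycle inhibitor, fell by 1.51 (SE 0.10), and Mymx, a fusion protein of myoblasts, by 1.24 (SE 0.09). Mymx fell in myotubes as well, with a change of -1.37 (SE 0.09) in MuSK-null and -0.80 (SE 0.09) in wild-type cells. Against the same shares of all genes, among 26 satellite cell genes 3 were called higher and 13 lower in MuSK-null myoblasts and 4 and 13 in wild-type myoblasts, and 2 and 9 in MuSK-null and 3 and 9 in wild-type myotubes. Hey1, a target of Notch and BMP signalling on this list, rose by 1.96 (SE 0.13) in MuSK-null myoblasts, and Fgfr4, a growth factor receptor of myoblasts, fell by 1.30 (SE 0.08) there and by 1.29 (SE 0.08) in wild-type myoblasts. Of 29 upstream regulators 2 were higher and 3 lower in MuSK-null myoblasts, and 5 and 3 in wild-type myoblasts, where 8.42% and 11.0% of all genes were called. Among these Tbx1, a factor upstream of head muscle, rose by 1.44 (SE 0.11) in the MuSK-null line and Tead4, a factor of muscle differentiation, fell by 1.07 (SE 0.10) in wild type. Of 21 genes listed as cofactors and regulators of Mef2, 1 was higher and 3 lower in MuSK-null myoblasts, against 8.42%, and 2 and 3 in wild-type myoblasts, against 11.0%.

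Between the lines, the untreated MuSK-null myoblasts had more Myf5 and Pax3 and less Mef2c, Myog, Myod1, Mef2a and Mef2d. In these cells 2 factors were called higher and 5 lower, where 31.3% of all genes were called. Myf5 was higher by 1.83 (SE 0.08, adjusted p = 1.38e-14), a factor of 3.56, and Pax3 by 0.58 (SE 0.06, adjusted p = 1.62e-07). The differences were -2.16 for Mef2c (SE 0.05, adjusted p = 7.22e-19), -1.99 for Myog (SE 0.07, adjusted p = 7.72e-17), -1.24 for Myod1 (SE 0.05, adjusted p = 7.67e-15), -0.80 for Mef2a (SE 0.07, adjusted p = 7.68e-09) and -0.42 for Mef2d (SE 0.12, adjusted p = 0.0105). The Mef2d call was lost on leaving out replicate 2 of the MuSK-null or replicate 1 or 3 of the wild-type arrays, and the difference was -0.39 without the array set (adjusted p = 1.73e-05). For Myf6 the difference was -0.31 (SE 0.13, adjusted p = 0.0853). In treated myoblasts 1 factor was called higher, Myf5 by 0.89 (SE 0.08), and 5 lower, against 29.7% of all genes. The lower ones were Myog at -2.22, Mef2c at -2.12, Myod1 at -1.61, Mef2a at -0.90 and Myf6 at -0.86. Mef2d was at -0.29 (adjusted p = 0.0804, and -0.25 with adjusted p = 0.00131 without the array set) and Pax3 at 0.16 (adjusted p = 0.0673, and 0.15 with adjusted p = 0.205 without the array set). Pax3 was called higher there with the set blocked (adjusted p = 0.0499), without dim genes (adjusted p = 0.0310), under median centring (0.21, adjusted p = 0.0119) and after quantile normalization (0.20, adjusted p = 0.0109).

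In myotubes the lines had nearly the same Myog, and Myf5, Myf6 and Pax3 were higher in the MuSK-null line. Untreated, 3 factors were called higher and 3 lower, where 37.4% of all genes were called, so these shares are to be read against a large background. Myf5 was higher by 1.44 (SE 0.08), Myf6 by 1.04 (SE 0.13) and Pax3 by 0.85 (SE 0.06), and the differences were -0.66 for Myod1 (SE 0.05), -0.56 for Mef2a (SE 0.07) and -0.32 for Mef2c (SE 0.05). Their adjusted p-values from limma lay between 1.25e-12 and 4.23e-05. For Myog the difference was 0.03 (SE 0.07, adjusted p = 0.736, 95% interval -0.10 to 0.17). Mef2d was at -0.20 (SE 0.12, adjusted p = 0.233). Its adjusted p was 0.00126 without the array set and 0.0208 with only the compared groups in the fit. Its second probe set, tested on its own, was at -0.06 (SE 0.19, adjusted p = 0.842). For treated myotubes the first and the second Mef2d probe set were at -0.10 (adjusted p = 0.592) and 0.21 (adjusted p = 0.431). With BMP4, 3 were called higher and 3 lower, against 36.3% of all genes. Myf5 was higher by 1.46, Myf6 by 0.89 and Pax3 by 0.60, and Myod1 was at -0.51, Mef2c at -0.24 and Mef2a at -0.19. The Mef2a call (adjusted p = 0.044) was lost under median centring (-0.14, adjusted p = 0.175), with the compared groups alone (adjusted p = 0.105) and on leaving out replicate 1 or 3 of either group (adjusted p between 0.0953 and 0.169).

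The genes downstream of these factors were lower in MuSK-null myoblasts almost throughout. Of the 32 target genes of MyoD and myogenin 0 were called higher and 31 lower in untreated cells (median -1.87, against -0.01 over all genes), and 0 and 30 in treated cells (median -1.72, against 0.02), where 31.3% of all genes were called in untreated and 29.7% in treated myoblasts. Myh3, an embryonic myosin heavy chain, was 9.00 in MuSK-null and 12.61 in wild-type untreated myoblasts, a difference of -3.61 (SE 0.07). In myotubes 1 was higher and 19 lower untreated (median -0.23) and 2 and 19 with BMP4 (median -0.20), against 37.4% of all genes untreated and 36.3% with BMP4. Ankrd2, a stretch-responsive muscle protein, was at -3.02 (SE 0.08) and Cdkn1c at 1.55 (SE 0.10) in untreated myotubes. Of 7 other Pax genes 1 was called higher in MuSK-null cells in untreated and 2 in treated myoblasts, against 31.3% and 29.7% of all genes, and 0 lower. In untreated and in treated myotubes 1 was higher and 0 lower, against 37.4% and 36.3%. Pax6, a factor of eye and brain, was called higher in all 4 settings, by 1.37 to 1.91. The targets include all 6 myotube markers and the myoblast markers Cdh15 and Des, so these lists are not separate. The levels of markers of cell types also differed between the lines, and their counts are likewise to be read against 31.3% of all genes in untreated myoblasts and 37.4% in untreated myotubes. The 4 myoblast markers averaged 11.38 to 11.47 over the 3 untreated MuSK-null myoblast arrays and 12.55 to 12.73 over the wild-type ones, and all 4 were called lower. The 6 fibroblast markers averaged 8.51 to 8.56 in MuSK-null and 7.62 to 7.82 in wild-type untreated myoblasts, with 3 called higher (Col1a1, Dcn and Pdgfra) and 1 lower (Thy1), and 9.17 to 9.31 against 8.03 to 8.13 in untreated myotubes, with 4 higher and 1 lower. The 4 smooth muscle markers averaged 10.01 to 10.08 in MuSK-null and 10.52 to 10.67 in wild-type untreated myoblasts, with 2 called lower, and 1 was higher and 1 lower in untreated myotubes. Of the 4 endothelial, 4 macrophage and 2 measured Schwann cell markers, 0 were called in untreated myoblasts and 1, a macrophage marker, was lower in untreated MuSK-null myotubes. Arrays have no true 0, so no marker can be called absent. In these bulk samples fewer cells of a type and less RNA per cell cannot be told apart, and the part of cell composition in these differences was not tested.

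With differentiation both lines moved the factors in the same directions, and 5 of them moved further in the MuSK-null line by the test of the difference. In untreated MuSK-null cells 6 factors were called higher and 2 lower in myotubes, where 41.6% of all genes were called, and in wild-type cells likewise 6 and 2, against 45.0%. Myf6 rose by 4.07 (SE 0.13) in MuSK-null cells, a factor of 16.8, and by 2.72 (SE 0.13) in wild-type cells, a factor of 6.58. Mef2c rose by 3.70 (SE 0.05) in MuSK-null and by 1.86 (SE 0.05) in wild-type cells. Myog rose by 2.43 (SE 0.07) in MuSK-null and by 0.41 (SE 0.07) in wild-type cells, with untreated myoblasts at 9.96 in the MuSK-null line and at 11.95 in wild type. In MuSK-null cells Myod1 rose by 1.06, Mef2d by 0.86 and Mef2a by 0.58, against 0.48, 0.64 and 0.35 for the same genes in wild-type cells. Myf5 fell, with a change of -1.76 in MuSK-null and -1.37 in wild-type cells on the log2 scale (SE 0.08 each), and so did Pax3, with -1.08 in MuSK-null and -1.35 in wild-type cells (SE 0.06 each). All of these 16 changes had adjusted p-values from limma of 0.000389 or less. The Mef2a rise in wild-type cells was 0.17 (adjusted p = 0.0665) after quantile normalization.

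**Figure D4:**
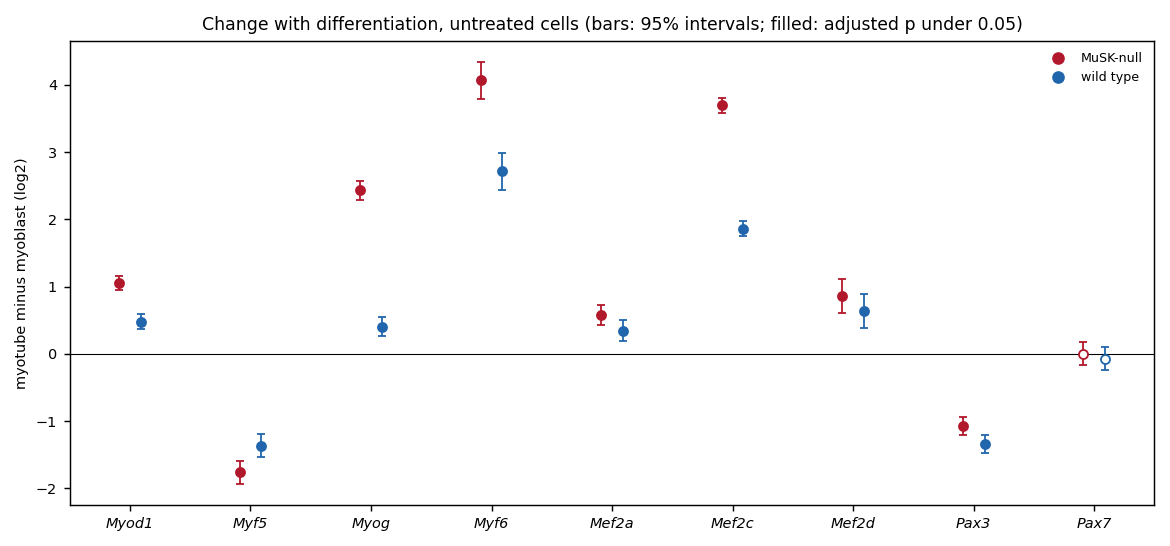
Change of each factor with differentiation as untreated myotube minus untreated myoblast log2 signal, in MuSK-null (red) and wild-type cells (blue), 3 arrays a group. Bars are 95% intervals from limma and filled points have an adjusted p under 0.05. Myf6, Mef2c and Myog rise further in MuSK-null cells (4.07, 3.70 and 2.43) than in wild-type cells (2.72, 1.86 and 0.41), and Pax7 is called in neither line.

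The difference of the 2 changes, MuSK-null minus wild type, was called for 6 factors, 5 of them higher and 1 lower, where 29.1% of all genes were called. It was 2.03 for Myog (SE 0.09, adjusted p = 9.08e-14), 1.84 for Mef2c (SE 0.08, adjusted p = 1.81e-14), 1.35 for Myf6 (SE 0.19, adjusted p = 5.49e-06) and 0.57 for Myod1 (SE 0.07, adjusted p = 2.21e-06). For Myf5 it was -0.40 (SE 0.11, adjusted p = 0.0104). For Pax3 it was 0.27 (SE 0.09, adjusted p = 0.0301), and 0.26 with adjusted p = 0.0767 without the array set. The Pax3 call was also lost with only the compared groups in the fit (adjusted p = 0.0732) and under median centring (0.21, adjusted p = 0.0864). Leaving out 1 array ended it in 5 of 12 cases. For Mef2a it was 0.23 (SE 0.10, adjusted p = 0.104), called with the array set blocked (adjusted p = 0.0241), with trend and robust moderation (adjusted p = 0.0445) and after quantile normalization (0.40, adjusted p = 0.00453). For Mef2d it was 0.22 (SE 0.18, adjusted p = 0.389), and 0.19 without the array set (adjusted p = 0.0414). These differences share the untreated myoblasts and myotubes with the comparisons of the lines above. For Mef2c and Myod1 the lines were closer to each other in myotubes than in myoblasts, and for Myf6 the difference was 1.04 in myotubes and -0.31 in myoblasts. Of the 32 target genes, 31 were called higher and 0 lower with differentiation in MuSK-null cells, where 41.6% of all genes were called (median 2.47, against -0.01 over all genes), and 28 and 3 in wild-type cells, against 45.0% (median 1.35, against -0.05). The 3 that fell in wild-type cells were Cdh15, Cdkn1c and Rbm24. Of the E proteins Tcf3 fell by 0.84 (SE 0.10) in MuSK-null and by 1.16 (SE 0.10) in wild-type cells. Among the inhibitors Id2 moved in opposite directions, by -2.47 (SE 0.08) in MuSK-null and 1.16 (SE 0.08) in wild-type cells, and Hey1 likewise, by 2.32 (SE 0.13) and -1.80 (SE 0.13). On the list of Mef2 cofactors and regulators, Trim72, a membrane repair protein of muscle, rose by 4.44 (SE 0.09) in MuSK-null and by 2.57 (SE 0.09) in wild-type cells. Ppargc1a, a coactivator that Mef2 factors bind, rose by 3.13 (SE 0.14) and 2.75 (SE 0.14).

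Across the 24 arrays the factors formed opposed sets, described here by Pearson correlations that share the 8 groups and carry no test. Myod1, Myog, Mef2a and Mef2c correlated with each other at 0.89 to 0.96, Myf5 with Pax3 at 0.92, and Myf5 with Myod1 at -0.88. Among 4047 genes whose group means span at least 1 log2 unit, those most like each factor were looked up. Myog was most like Actc1, cardiac actin, which developing muscle also uses (0.99), then Myh3 and Mymk, the fusion protein myomaker. Mef2c was most like Ttn, the giant sarcomere protein titin (1.00), then Smpx and Tbc1d8. Myod1 was most like Actn3, an actinin of fast fibres (0.98), then Asb5 and Clip1. Mef2a was most like Rb1, the retinoblastoma protein (0.97), then Chrnb1 and Myod1 itself. Myf6 was most like Rftn2 (0.99), Padi2 and Frem2, Mef2d like Airn (0.95), Myorg and Rbm38, Myf5 like Lgr4 (0.98), Col12a1 and Eya1, and Pax3 like Atp8b2 (0.99), Clmp and Klf6. Lgr4, the receptor that was most like Myf5, averaged 12.99 in treated and 12.69 in untreated MuSK-null myoblasts and 12.41 in treated and 11.00 in untreated wild-type myoblasts.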

How the data were processed

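Each of the 24 arrays measured 1 RNA sample of cultured cells, and its values are deposited on a log2 scale in the series' value table. Per the submitters' processing notes Affymetrix Expression Console and Partek were used, with no version, and how they corrected background and normalized is not given here. Of 35556 rows, 21789 carry 1 gene in the platform annotation, 1621 several and 12146 none, and 21698 of the named rows matched RefSeq. For the 999 genes with several rows the row with the highest mean was kept, which left 19938 genes. limma 3.58.1 in R 4.3.3 fitted 1 mean per group over the 24 arrays (16 residual degrees of freedom) with Benjamini-Hochberg adjustment over all genes. The fit was tested on simulated data. The text names all 9 factors, up to 3 called genes with the largest change per list and comparison, Musk as a check of the labels, and the 3 genes most correlated with each factor, where names of markers called one way were added after their values were seen. The members and lists were chosen with earlier results of these data known. The 2 comparisons of BMP4 responses between stages and the alternatives with the array set were added after seeing the data. Other alternatives were median centring, quantile normalization, a filter on dim genes, each probe set tested on its own, trend and robust moderation, the compared groups alone, the replicate number as a block and leaving out each array. Same-numbered arrays had correlated deviations (every correlation over 0.1) in 3 of 28 pairs of groups, all myoblasts, which cannot be told apart from the array set.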

Additional observations from a re-analysis of the deposited data

Results flagged for a closer look

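Differences between the lines or the stages that the interaction tests of limma called are collected here as values. Those of Pax3, and those of Myog and Myod1 between stages in wild-type cells, were lost in some alternatives, as given above. The change with differentiation differed between MuSK-null and wild-type cells by 2.03 for Myog, 1.84 for Mef2c, 1.35 for Myf6, 0.57 for Myod1, 0.27 for Pax3 and -0.40 for Myf5, MuSK-null minus wild type. The BMP4 response of myoblasts differed between the lines by -0.94 for Myf5, -0.42 for Pax3 and -0.38 for Myod1. The BMP4 response of myotubes minus that of myoblasts was 0.84 for Myod1, 0.76 for Mef2a, 0.68 for Myf5 and 0.67 for Myog in MuSK-null cells, and 0.37 for Myog and 0.31 for Myod1 in wild-type cells.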

How the results depend on the processing

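None of the 135 changes (9 factors in 15 comparisons) reversed a call under the alternatives that were run. The replicate number as a block, run as a pairing check, changed 0 of the 135 calls. In the pairing check 15 of 24 arrays correlated best with their own number. In MuSK-null myotubes the BMP4 response was called for 4 factors in place of 2 when the array set was blocked or left out. In wild-type myotubes it was called for 2 to 3 factors in place of 4 on leaving out 1 array. The difference of myotube responses between the lines was called for 1 factor, Mef2a, in place of 0 when the array set was blocked or left out, without dim genes, under median centring and with trend and robust moderation, and for 0 to 1 on leaving out 1 array. The stage difference in wild-type cells was called for 4 factors when the array set was blocked, for 0 with the compared groups alone, in place of 2, and for 1 to 2 on leaving out 1 array. Under median centring the share of higher calls over all genes was 61.5% in place of 49.0% between untreated myoblasts, 60.3% in place of 47.4% between treated myoblasts, 58.8% in place of 48.2% between treated myotubes, 62.8% in place of 46.9% for the difference of myotube responses and 63.3% in place of 52.5% for the stage difference in MuSK-null cells. This share fell in other comparisons. It was 41.8% in place of 51.4% for the difference of differentiation between the lines. For BMP4 in wild-type myotubes it was 42.5% in place of 50.2%, and for differentiation of MuSK-null cells 38.2% in place of 43.7%. Over all genes the calls were 1115 in place of 1678 for BMP4 in MuSK-null myoblasts with the compared groups alone, and with the set blocked 745 in place of 477 and 1011 in place of 640 for the differences of myoblast and of myotube responses between the lines, and 1028 in place of 682 for the stage difference in wild-type cells. The dim filter kept 11024 genes and 8 of the 9 factors, without Pax7. With 3 arrays a group, changes of the size of the within-group spread were not detectable.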
